A study of Mus musculus with 12 samples.

Results

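Oxidative phosphorylation is carried out by 5 protein complexes of the inner mitochondrial membrane. Complexes I and II take electrons from NADH and succinate, complex III passes them to cytochrome c, complex IV passes them to oxygen, and complex V, the ATP synthase, uses the resulting proton gradient to make ATP. Most subunits are encoded in the nucleus and imported, and a small set of core subunits is encoded by mitochondrial DNA. In the liver this machinery supplies the ATP for gluconeogenesis, urea synthesis and protein secretion, and fatty acid oxidation delivers electrons to it.

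The nuclear-encoded subunit genes were taken by gene symbol, in a set chosen with earlier results of these data known. They are the rows whose symbol begins with Nduf, Sdh, Uqcr, Cox4 to Cox8 or Atp5 and follows the subunit naming pattern. They came to 84 of the 50499 genes in the count table. Of these, 36 belonged to complex I, 4 to complex II, 8 to complex III, 19 to complex IV and 17 to complex V, with Ndufa4, a subunit named for complex I and since placed in complex IV, counted in complex IV. A low-count filter kept 76 of the 84 and 11934 genes in all. All members of complexes I, II, III and V passed it, and 11 of the 19 of complex IV did. The pattern selects names, and 14 subunits and electron carriers named otherwise, among them Cyc1, Cycs and Slc25a5, were kept as a separate list.

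RNA was sequenced from livers of male C57Bl/6NCrl mice, wild type, in 12 libraries of 4 groups with 3 in each. Diets began at 6 weeks of age, and were either chow with plain water or a Western diet with sugared water, which is used to bring on steatohepatitis. After 12 weeks every mouse received AAV8 particles through the tail vein, with the TBG promoter, which is active in hepatocytes. The particles carried either no insert (chow null, labelled CDC, and Western null, labelled WDC) or a silencing sequence against Aatf, a transcriptional regulator (chow siAATF, labelled CDsiAATF, and Western siAATF, labelled WDsiAATF), and livers were taken 12 weeks later. The labels do not say that each replicate number is a separate mouse, so p-values measure the spread between these libraries, which may be technical.

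Totals ran from 1646853 to 13469819 counts per library, and the members held 12456 to 116069 of them. Levels are given in CPM, counts scaled to a common library size by the TMM method. Albumin, the main hepatocyte product, stood at 21927 to 59777 CPM, so the libraries carried the labelled tissue's defining transcript. The 18S ribosomal RNA gene took 0.871% to 50.8% of the counts, and more than 25% in 4 libraries (chow null 1 and 2, chow siAATF 1 and Western siAATF 2). The siAATF label could not be checked by Aatf itself, whose level showed no drop: the mean was 31.6 ± 5.13 CPM (SD, n = 3) in chow null, 34.8 ± 8.86 in chow siAATF, 26.3 ± 4.60 in Western null and 27.5 ± 0.599 in Western siAATF, so every statement on the vector rests on the label. Western siAATF replicate 1 held transcripts of skeletal muscle, with a sum of 761 CPM over 6 muscle markers against at most 3.18 CPM in any other library. Western siAATF replicate 3 had the highest summed level of the members, and it and 2 further libraries (chow null 1 and Western siAATF 2) stood apart from the rest within the members, as described further on.

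As examples of the sequence at the members' starts, the promoters of 4 of them are printed first. They are Atp5md and Uqcr10, which were called in a comparison below and have an entry in the promoter table, and the member with the smallest unadjusted p for diet among those with an upstream NRF1 match (Ndufa8) and with an upstream ETS match (Atp5e). Each is the 250 bases before the transcription start from RefSeq on GRCm38.p6, minus strand of the genome and written 5′ to 3′ along the gene. Capitals mark motif matches on either strand. The positions are chr19:47090648-47090897 for Atp5md, chr11:4704345-4704594 for Uqcr10, chr2:36049339-36049588 for Ndufa8 and chr2:174464102-174464351 for Atp5e.
Atp5md: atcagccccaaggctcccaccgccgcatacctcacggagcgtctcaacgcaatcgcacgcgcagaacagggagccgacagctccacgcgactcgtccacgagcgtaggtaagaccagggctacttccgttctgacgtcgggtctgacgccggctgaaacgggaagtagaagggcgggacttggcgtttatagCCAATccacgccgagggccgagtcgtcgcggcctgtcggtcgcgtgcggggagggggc
Uqcr10: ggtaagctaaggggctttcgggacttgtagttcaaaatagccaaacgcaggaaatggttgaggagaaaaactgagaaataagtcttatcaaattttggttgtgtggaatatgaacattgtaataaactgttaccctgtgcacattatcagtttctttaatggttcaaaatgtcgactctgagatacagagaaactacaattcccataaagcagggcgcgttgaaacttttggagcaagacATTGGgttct
Ndufa8: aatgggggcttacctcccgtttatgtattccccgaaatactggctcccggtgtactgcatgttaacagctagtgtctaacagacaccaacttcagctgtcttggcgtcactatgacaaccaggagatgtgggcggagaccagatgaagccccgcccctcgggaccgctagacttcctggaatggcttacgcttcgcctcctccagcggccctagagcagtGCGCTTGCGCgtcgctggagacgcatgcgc
Atp5e: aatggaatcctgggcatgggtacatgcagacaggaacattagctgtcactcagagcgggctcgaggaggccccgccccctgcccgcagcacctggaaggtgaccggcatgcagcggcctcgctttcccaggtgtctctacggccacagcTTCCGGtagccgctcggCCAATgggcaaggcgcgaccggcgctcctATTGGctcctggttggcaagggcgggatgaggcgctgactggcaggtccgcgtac
The capitals are a CCAAT box in Atp5md and in Uqcr10 (in the latter on the other strand, as ATTGG), an NRF1 motif in Ndufa8 (also on the other strand), and in Atp5e an ETS core (on the other strand, as TTCCGG) with 2 CCAAT boxes, 1 on each strand. Of the 84 members, 68 had a promoter in the table, here the 300 bases that reach 50 past the start. ETS factors such as GABP bind the core CCGGAA, NRF1 binds GCGCA and GCGC with 1 base of any kind between them, YY1 binds AAGATGG and NF-Y binds CCAAT, and GABP, NRF1 and YY1 are known regulators of respiratory genes. Searching both strands and keeping matches that overlap another motif, the ETS core was in 26 of the 68 promoters (38.24%) and in 16.66% of 27025 genes, the NRF1 motif in 17 (25%) and in 5.188%, the YY1 motif in 11 (16.18%) and in 7.278%, and CCAAT in 30 (44.12%) and in 41.06%. The member promoters also had more G and C, with a median of 57.83% against 52.67%, and no test of the motif counts was made. A match is a description of the sequence.

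Between genes, levels were compared per length. On the mean over 12 libraries divided by the median length of the gene's annotated transcripts, Cox4i1, the regulatory subunit IV of cytochrome c oxidase, was the highest of the 73 tested members with a transcript length, at 466 CPM per kb. Uqcrc1, a core protein of complex III, followed at 392 CPM per kb, and Atp5e, the small epsilon subunit of the ATP synthase stalk, at 359.6 CPM per kb. The place of Uqcrc1 depended on the length used: by its longest annotated transcript (1653 bases, against a median of 533) it stood at 126 CPM per kb, whereas Cox4i1 stood at 454 and Atp5e at 359.6. The place of Atp5e differed between group means: in chow null it stood at 180.3 CPM per kb, under Atp5a1 at 291, and in Western siAATF at 539, next after Cox4i1 at 562. Its level was spread widely between libraries of a group, as given further on, so single libraries weigh on these means. The lowest 3 were Ndufb4 at 14.0, Ndufb2 at 14.5 and Ndufc1 at 14.9 CPM per kb, all accessory subunits of complex I. Introns were counted with exons, so these values are approximate.

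The first comparison asks how the Western diet affected these genes in mice given the null vector. Summed over the members, chow null libraries held 6029, 7033 and 5753 CPM and Western null libraries 8095, 8990 and 7719 CPM. The groups did not overlap, and the log2 ratio of their means was 0.40. The same held in each complex: the 3 Western null sums were above the 3 chow null sums in complexes I (2061 to 2467 against 1566 to 1921 CPM), II (709.96 to 787 against 528 to 690.0), III (958 to 1086 against 685 to 851), IV (1194 to 1399 against 872 to 1069) and V (2796 to 3252 against 2087 to 2502). These sums are descriptions, and the trend with gene span given further on was not taken out of them. Besides, 3 libraries against 3 cannot give a two-sided exact permutation p under 0.1.

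**Figure D1:**
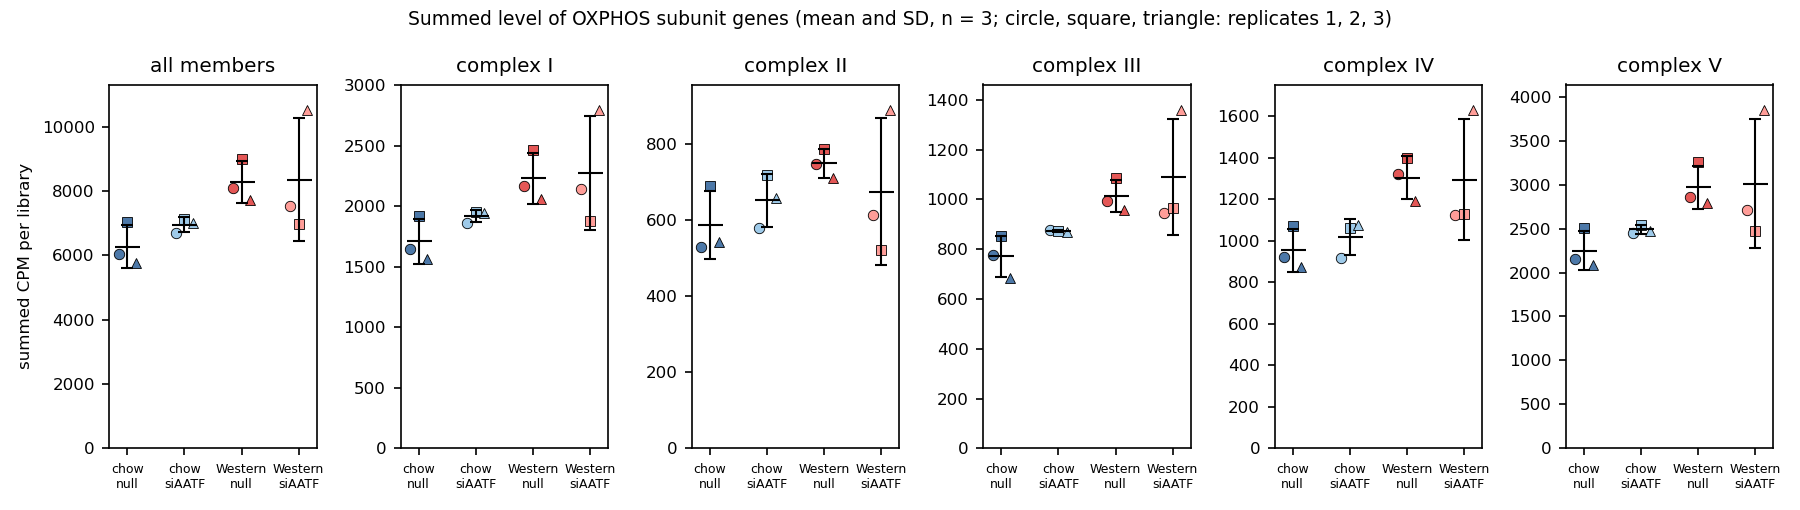
Summed CPM of the members per library, for all members and for each complex, with the group mean and SD (n = 3) as bars and replicates 1, 2 and 3 as circle, square and triangle. The 3 Western null libraries (7719 to 8990 CPM over all members) lie above the 3 chow null libraries (5753 to 7033 CPM), and Western siAATF spans 6970 to 10530 CPM.

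Gene by gene, 2 of the 76 tested members rose, Uqcr10 and Cox4i1, and 0 fell (edgeR quasi-likelihood test, Benjamini-Hochberg adjusted over 11934 genes, threshold 0.05). Of all genes tested 6.44% were called higher and 6.77% lower, so the share of members called was below the background. At an unadjusted p under 0.05, 12 members were higher and 0 lower, against 13.6% of all genes higher and 1771 of 11934 lower. Most estimates were small and above 0: 68 of 76 had a fitted log2 fold change above 0, against 48.4% of all genes, and their median was 0.34 against -0.03. In 25 members the 3 Western null libraries were all above the 3 chow null libraries, against 17.7% of all genes, and in 0 members all below, against 17% of all genes.

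**Figure D2:**
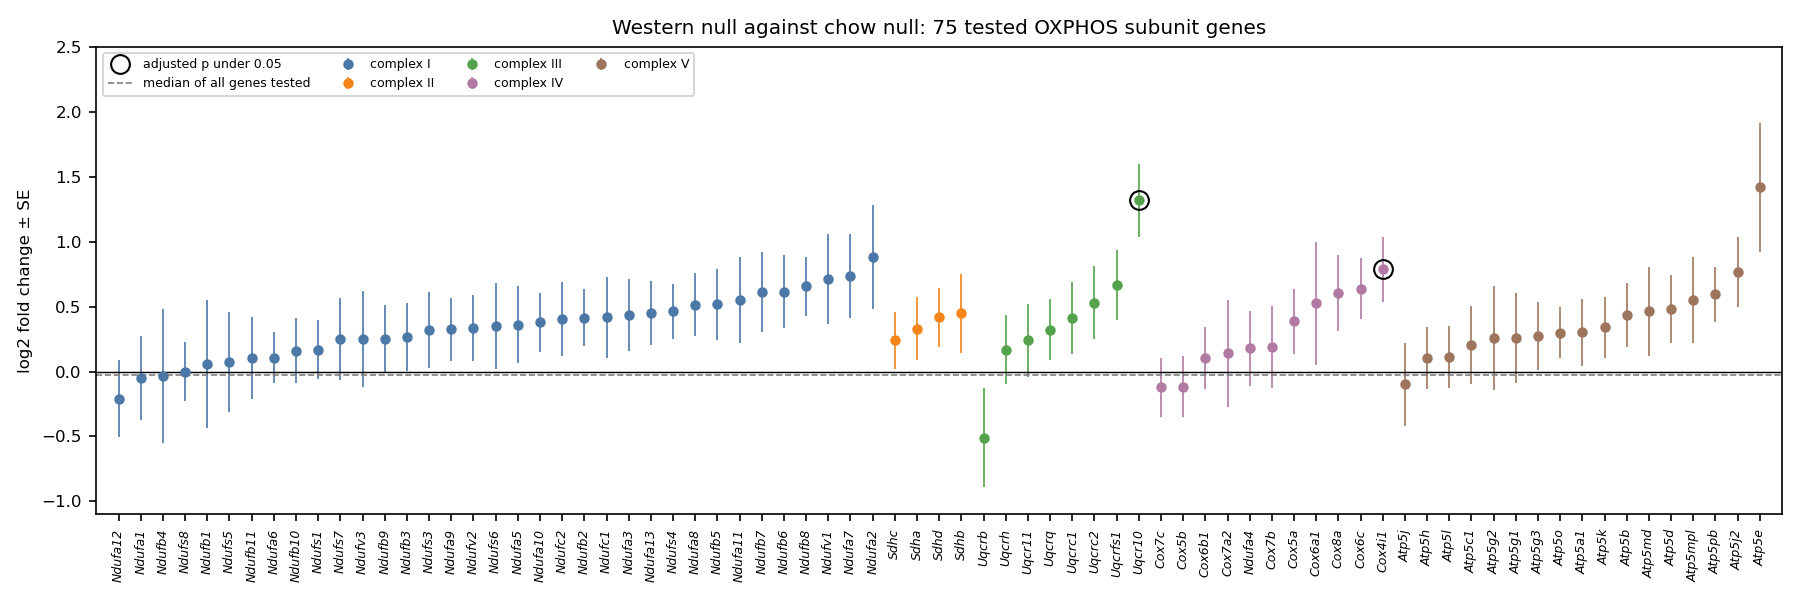
Log2 fold change of 75 of the 76 tested members, Western null against chow null, with its standard error, in order of size within each complex; rings mark an adjusted p under 0.05 and the dashed line is the median of all genes tested. Estimates run from -0.51 (Uqcrb) to 1.418 (Atp5e), 68 of all 76 are above 0, and the ringed genes are Uqcr10 and Cox4i1.

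In complex I, which oxidises NADH, 0 of 36 members passed the test, and the median log2 fold change was 0.36 with 32 estimates above 0. The core subunits that carry the electrons gave unequal values. Ndufv1, which binds NADH and the flavin, stood at 79.9, 148 and 118 CPM in chow null and at 197, 203 and 165 CPM in Western null, with no overlap (log2 fold change 0.72 ± 0.35, adjusted p = 0.188, edgeR). Ndufs1, the large iron-sulphur subunit, stood at 45.4, 67.8 and 45.6 CPM in chow null and at 65.7, 49.1 and 61.7 CPM in Western null. Those groups overlapped (0.17 ± 0.23, adjusted p = 0.669, edgeR), and 44.2% of the span of Ndufs1 lies over a neighbouring gene. Ndufb8, an accessory subunit of the membrane arm, had the smallest p of the complex at 0.66 ± 0.23 (adjusted p = 0.0649, edgeR). The range went down to -0.21 for Ndufa12.

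In complex II, which is both succinate dehydrogenase of the citric acid cycle and an entry point for electrons, 0 of 4 members passed and all 4 estimates lay between 0.24 and 0.45. Sdha, the flavoprotein, stood at 322, 429.7 and 295 CPM in chow null and at 429.0, 455 and 430.02 CPM in Western null, so that chow null replicate 2 lay among the Western null libraries (0.33 ± 0.24, adjusted p = 0.395, edgeR). Sdhb, the iron-sulphur subunit, stood at 68.4, 115 and 97.1 CPM against 119.97, 143 and 118 CPM, without overlap (0.45 ± 0.30, adjusted p = 0.347, edgeR).

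In complex III, 1 of 8 members rose. This was Uqcr10, a small subunit of the cytochrome bc1 complex that lies next to the Rieske protein (GRCm39 chr11:4651968-4654344, minus strand). It stood at 36.2, 20.9 and 33.8 CPM in chow null and at 95.8, 81.8 and 55.1 CPM in Western null. All Western null libraries were above all chow null libraries, and the log2 fold change was 1.32 ± 0.28 (95% interval 0.73 to 1.91, adjusted p = 0.00597, edgeR). The Rieske protein itself, Uqcrfs1, stood at 61.5, 71.7 and 81.1 CPM against 118, 123 and 99.5 CPM. Its groups did not overlap either, but it did not pass (0.67 ± 0.27, adjusted p = 0.114, edgeR). The core protein Uqcrc1 stood at 142, 201.0 and 169.8 CPM against 201.4, 257 and 223 CPM (0.41 ± 0.27, adjusted p = 0.340, edgeR). Uqcrb, which binds next to the ubiquinone site, had the lowest estimate of all members at -0.51 ± 0.38 (adjusted p = 0.399, edgeR): chow null replicate 1 stood at 68.1 CPM, and the others stood at 18.6 and 31.7 CPM, of which the second lay within the range of Western null at 26.7, 25.9 and 32.1 CPM.

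In complex IV, 1 of the 11 tested members rose. Cox4i1 (GRCm39 chr8:121394964-121400948, plus strand) stood at 208, 309 and 211 CPM in chow null and at 419.7, 490.3 and 344 CPM in Western null. The groups did not overlap, and the log2 fold change was 0.79 ± 0.25 (95% interval 0.26 to 1.32, adjusted p = 0.0480, edgeR). Cox5a, a nuclear subunit on the matrix side of the complex, stood at 53.7, 76.8 and 56.3 CPM against 87.9, 79.1 and 75.7 CPM, which overlapped at 1 library (0.39 ± 0.25, adjusted p = 0.319, edgeR). Of the other isoforms that the liver uses, Cox8a was at 0.60 ± 0.29 (adjusted p = 0.188, edgeR), Cox6a1 at 0.53 ± 0.47, Cox7a2 at 0.14 ± 0.41 and Cox6b1 at 0.10 ± 0.24. Cox7a2 shares 75.7% of its span with another gene.

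Complex IV is the complex whose subunits come in tissue isoforms, and the 8 members under the low-count filter were isoforms or copies of subunits that passed it. Cox4i2 (lung), Cox6a2 (heart and muscle), Cox8c and Cox7b2 (testis) had 0 counts in all 12 libraries. Cox6a2 lies inside another gene, and 91.5% of the span of Cox4i2 overlaps other genes, so a count of 0 there does not speak to their level. Cox7a1, the heart and muscle form, had 4 counts in all. As 70.6% of its span overlaps other genes, that count does not speak to its level either. Cox6c2 had 1 count. Cox6b2, the testis form, had 16 counts and Cox8b, the form of muscle and brown fat, had 61, of which 54 were in Western siAATF replicate 1, the library with muscle transcripts. In the 6 null libraries Cox8b had 0 counts, and the limit that 0 allows there was 0.261 to 1.69 CPM (3 counts, counting error only).

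In complex V, 0 of 17 members passed, the median log2 fold change was 0.30 and 16 estimates were above 0. Atp5a1 and Atp5b, which form the catalytic head, were the most abundant members by CPM. Atp5b stood at 421, 526 and 475 CPM in chow null and at 637, 688 and 602 CPM in Western null, with no overlap (0.44 ± 0.25, adjusted p = 0.254, edgeR). Atp5a1 stood at 713, 910.2 and 620.4 CPM against 886, 970.1 and 907 CPM, which overlapped (0.30 ± 0.26, adjusted p = 0.471, edgeR). Atp5e had the highest estimate of all members, 1.418 ± 0.497 (adjusted p = 0.0762, edgeR). Its chow null libraries were spread over 34.97, 118 and 74.7 CPM, all under the 161, 278 and 161 CPM of Western null.

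The calls for diet depended on gene length and on the library set. The members are short, with a median span of 7245.5 bases against 25356.5 for all genes tested. Over all genes tested, each library's deviation from the mean level was set against span by Spearman rho. It was 0.30, -0.036 and 0.40 in chow null and -0.18, -0.19 and -0.16 in Western null, so this trend differed between the groups compared. Its part in the summed levels above was not tested. When a per-library trend of counts with span was taken out, the median log2 fold change was 0.20 with 50 of 76 estimates above 0. Uqcr10 (0.87, adjusted p = 0.0512, edgeR) and Cox4i1 (0.55, adjusted p = 0.117, edgeR) then no longer passed. Ndufs4 alone was called, where 11.1% of all genes were called in either direction. Without the 4 libraries with over 25% 18S the median was 0.48, Uqcr10 was at 1.21 (adjusted p = 0.0537, edgeR) and Cox4i1 at 1.01 (adjusted p = 0.0746, edgeR). That set holds 1 chow null library, replicate 3, which is assumed to vary like the libraries of the other groups. Cox4i1 lost its call without any 1 of chow null 1 or 3 or Western null 1, 2 or 3 (adjusted p up to 0.191, edgeR), with the fold change at 0.66 to 0.90 in those refits, while Uqcr10 kept its call in each of these refits. With DESeq2 7 members were higher, Atp5e, Atp5pb, Atp5j2, Cox4i1, Uqcr10, Cox6c and Ndufb8, where 17.0% of all genes were called in either direction. With limma-voom 3 were higher, Atp5e, Cox4i1 and Uqcr10, where 15.6% of all genes were called in either direction.

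Markers of the liver's cell types differed between the same groups. Of 8 hepatocyte markers 0 were called higher and 3 lower, and their sum was 62509 to 97776 CPM in chow null and 49212 to 54934 CPM in Western null. Of 10 macrophage markers 6 rose and 1 fell (sum 199.6 to 323 against 459 to 806 CPM), of 7 tested stellate cell markers 4 rose (190.03 to 322 against 968 to 1353 CPM), of 5 endothelial markers 3 rose and of 5 cholangiocyte markers 3 rose, with 0 lower in each of the 3 lists. The part of these cell types in the subunit estimates was not tested. In bulk tissue, fewer cells of a type and less RNA per cell cannot be told apart.

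Next, Western siAATF was set against Western null. In the libraries labelled siAATF, 0 of 76 members were called in either direction (edgeR; 0.871% of all genes were called), and DESeq2 and limma-voom called 0 as well. At an unadjusted p under 0.05, 1 member was higher, Ndufb3, an accessory subunit of complex I, against 5.56% of all genes. Ndufb3 stood at 35.5, 43.3 and 43.1 CPM in Western null and at 49.98, 49.7 and 88.5 CPM in Western siAATF, with no overlap (0.61 ± 0.26, adjusted p = 0.388, edgeR). Estimates ran from -0.57 for Atp5mpl to 0.81 for Cox7a2, with 38 above 0 and 38 below (55.4% of all genes were above 0), and the median was 0.00 (-0.003) against 0.06 for all genes. In 5 members the siAATF libraries all lay above the null libraries, against 7.69% of all genes, and in 1, Sdhd, all below, against 7.87%. Uqcr10, the gene that rose with the diet, stood at 52.0, 44.7 and 69.5 CPM in Western siAATF, which overlapped with Western null (-0.48 ± 0.28, adjusted p = 0.586, edgeR). Cox4i1 stood at 419.9, 328 and 509 CPM there (0.00 ± 0.25, 95% interval -0.52 to 0.53), and the Western null libraries given above lay within that range. The remaining genes singled out by p were Uqcrq at 0.43 ± 0.23 and Ndufc2 at -0.45 ± 0.29.

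This balance rested on 1 library. Western siAATF replicate 3 had the highest sum of all 12 libraries in total and in each complex (10530 CPM over all members, against 7539 and 6970 CPM in replicates 1 and 2). Without it the median of the members was -0.17 with 26 of 76 estimates above 0, and 0 members were called. Without Western siAATF replicate 1, the library with muscle transcripts, the median was 0.08.

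Markers of other cell types differed here too. Of the 5 tested cholangiocyte markers 0 were called higher and 1 lower (sum 99.5 to 224 CPM in Western null and 24.6 to 44.5 CPM in Western siAATF), and of the 10 macrophage markers 0 higher and 2 lower (459 to 806 against 327 to 831 CPM). Of the 7 stellate cell markers 0 were called (968 to 1353 against 270.3 to 670.3 CPM), and of the 8 hepatocyte markers 1 was higher and 0 lower. Their part in the subunit values was not tested.

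On chow, the vector comparison had 0 of 76 members called in either direction by edgeR, DESeq2 or limma-voom, and edgeR called 0% of all genes. At an unadjusted p under 0.05 there were 0 members and 2.39% of all genes. The median of the members was 0.11 against -0.03 for all genes, and 53 of 76 estimates were above 0, against 46.4% of all genes. In 2 members the chow siAATF libraries all lay above chow null, as they did in 507 of 11934 genes. In 1 member, Cox7c, they all lay below chow null, against 4.32% of all genes. The summed levels were 6688, 7145 and 7019 CPM in chow siAATF, within or just above the range of chow null. The smallest p values above 0 belonged to the complex I genes Ndufa5 (0.47 ± 0.29), Ndufb10 (0.39 ± 0.25) and Ndufa8 (0.36 ± 0.24). Below 0 they belonged to Ndufa4 (-0.55 ± 0.29), Atp5md (-0.63 ± 0.35) and Cox7c (-0.41 ± 0.23).

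The Western diet was also compared with chow among the libraries labelled siAATF. Here 1 of 76 members rose and 0 fell, against 0.763% of all genes called higher. The gene was Atp5md, which encodes DAPIT, a small membrane subunit of the ATP synthase that takes part in holding its dimers (GRCm39 chr19:47071910-47079086, minus strand). It stood at 15.9, 14.6 and 11.3 CPM in chow siAATF and at 45.3, 51.1 and 22.9 CPM in Western siAATF, with no overlap (1.53 ± 0.35, 95% interval 0.79 to 2.26, adjusted p = 0.0364, edgeR). In the null groups it stood at 29.7, 12.99 and 20.1 CPM on chow and at 21.7, 41.9 and 25.6 CPM on the Western diet, where it did not pass (0.46 ± 0.34, adjusted p = 0.395, edgeR). Next came Cox6c, a small complex IV subunit, at 77.3, 73.6 and 72.3 CPM against 121, 187 and 126 CPM (0.96 ± 0.24, adjusted p = 0.0518, edgeR). At an unadjusted p under 0.05, 9 members were higher, against 9.1% of all genes, and in 12 members the groups did not overlap and were higher, against 9.24%. In 0 members did they not overlap and were lower, against 8.36%. The median was 0.24 against 0.04, with 65 of 76 estimates above 0, against 53.8% of all genes. Beside this, the hepatocyte marker sum was 73673 to 74615 CPM in chow siAATF and 46360.1 to 55200.3 CPM in Western siAATF (0 of 8 called), and the macrophage sum 155 to 323 against 327 to 831 CPM (1 of 10 higher, 0 lower). Their part in the subunit values was not tested.

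Atp5md lost its call with the gene span correction (adjusted p = 0.0567, edgeR), without the libraries high in 18S (adjusted p = 0.118), and without any 1 of the chow siAATF replicates or of Western siAATF replicates 1 and 2 (up to adjusted p = 0.175, edgeR). Its fold change in these refits was 1.31 to 1.61. It kept it without Western siAATF replicate 3, but the median of the members then was 0.03, with 42 of 76 estimates above 0.

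Whether the diet effect differed with the vector was tested by the interaction term. For the members 0 of 76 were called (edgeR; 0.193% of all genes), with 0 called by DESeq2 and limma-voom. At an unadjusted p under 0.05 there was 1 lower, Uqcr10 (-0.87 ± 0.39, adjusted p = 0.529, edgeR), and 1 higher, Atp5md (1.06 ± 0.48, adjusted p = 0.537, edgeR), against 9.16% of all genes in either direction. Of the members 27 had an estimate above 0, against 55% of all genes. The median was -0.10 against 0.07 for all genes. It moved to -0.32 without Western siAATF replicate 3. The other genes named by p were Cox8a (-0.67 ± 0.41), Sdhd, the membrane anchor of complex II (-0.50 ± 0.32), Atp5j (0.70 ± 0.45) and Uqcrb (0.73 ± 0.54). The comparisons share groups of libraries, so their values are not independent of each other.

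**Figure D3:**
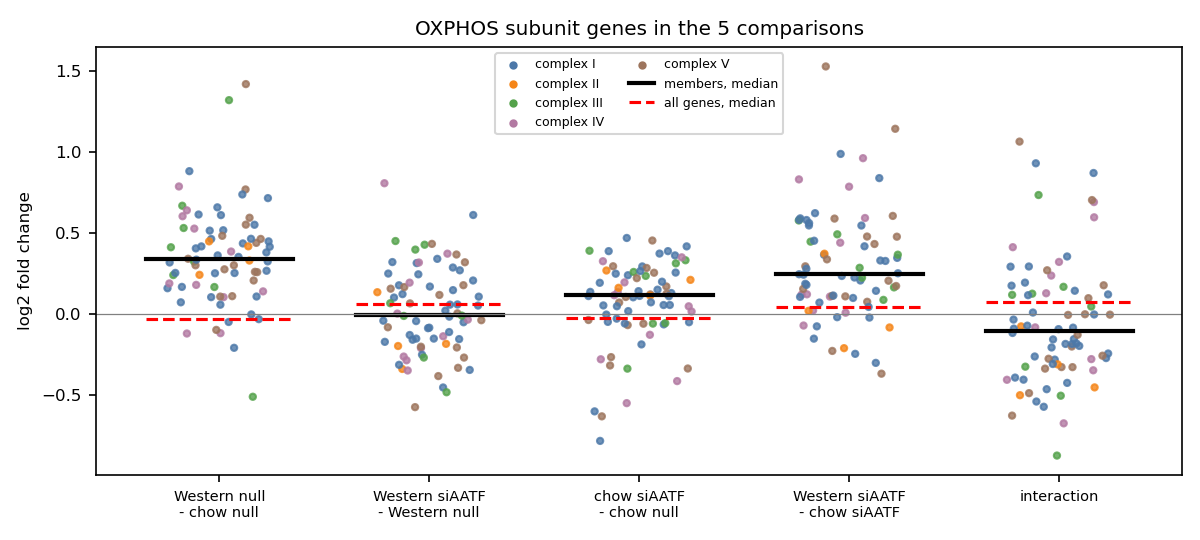
Fitted log2 fold changes of the 76 tested members in the 5 comparisons, 1 point per gene coloured by complex, with the median of the members (black) and of all genes tested (red, dashed). The members' median was 0.34 for diet with the null vector, 0.00 (-0.003) and 0.11 for the vector on each diet, 0.24 for diet among siAATF libraries and -0.10 for the interaction.

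The libraries differed among themselves within the members, and the largest part of this did not follow the groups. On the first principal component of the 76 genes, which held 44.9% of their variance, chow null replicate 1 (-4.44) and Western siAATF replicate 2 (-4.06) lay at one end and Western siAATF replicate 3 (3.89) at the other. The other 9 libraries lay between -1.73 and 1.85. The heaviest negative weights were those of Ndufb4 and Uqcrb and the heaviest positive ones those of Atp5e and Cox6a1. Ndufb4, an accessory subunit of complex I, stood at 21.8 and 32.9 CPM in the first 2 libraries and at 7.48 CPM in the third. Cox6a1 stood at 87.8 and 83.5 CPM in the first 2 and at 366 CPM in the third. The second component held 28.0% of the variance and parted the diets. On it the chow libraries lay between -3.22 and 0.091, and the Western libraries between 0.305 and 2.78.

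**Figure D4:**
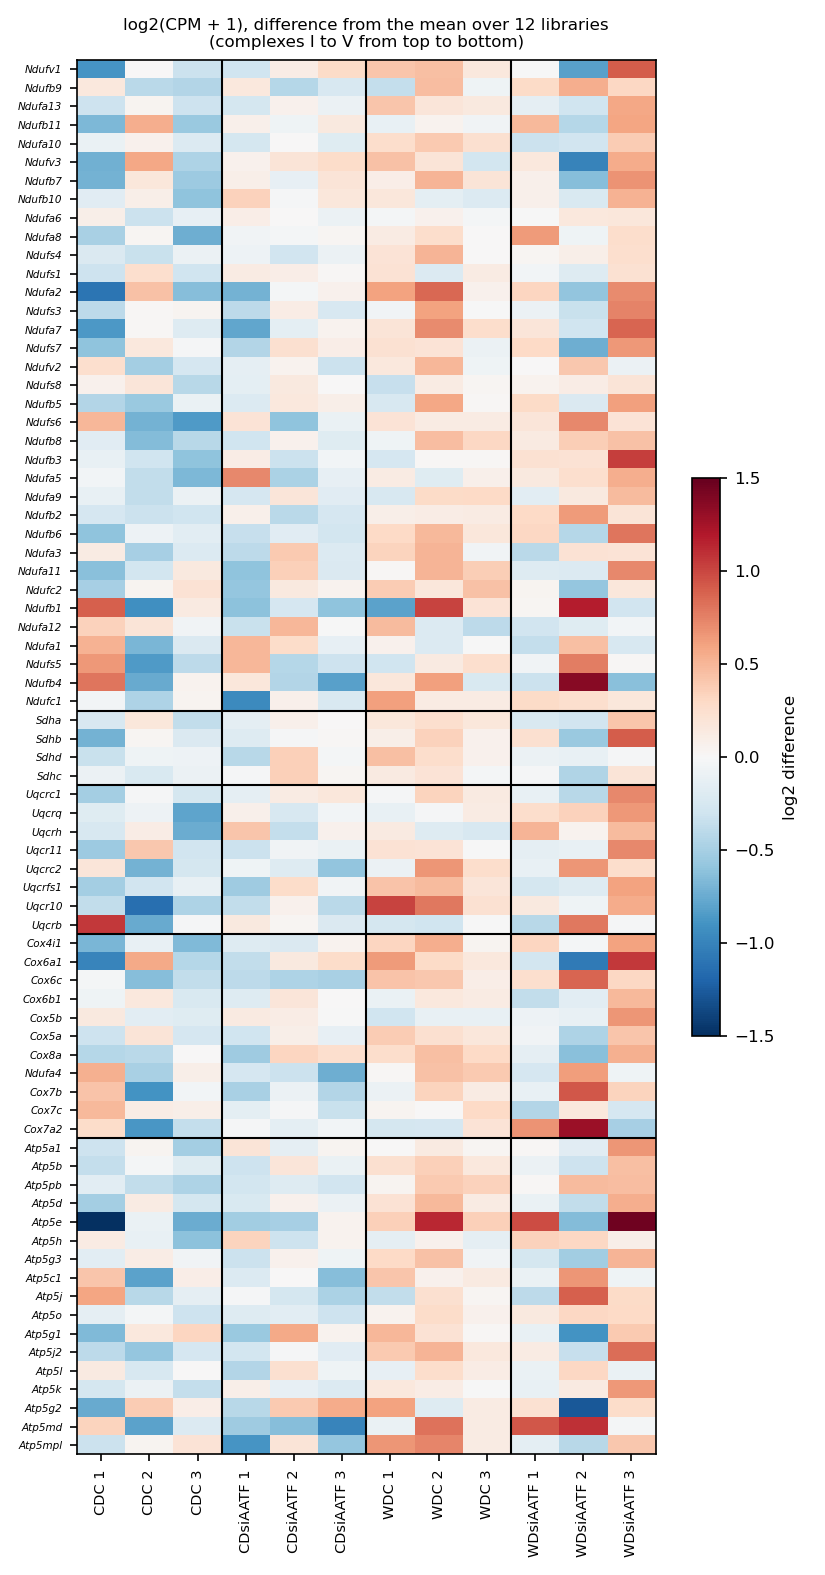
Log2(CPM + 1) of 75 of the 76 tested members in the 12 libraries, as the difference from each gene's mean (blue lower, red higher), with complexes I to V from top to bottom; CDC is chow null, CDsiAATF chow siAATF, WDC Western null and WDsiAATF Western siAATF. Of all 76 genes 68 have a fitted value higher in Western null than in chow null, and the columns of chow null 1, Western siAATF 2 and Western siAATF 3 differ from the other replicates of their groups, with Atp5e from 34.97 CPM in the first to 349.9 CPM in the last.

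The weights of the first component went with base composition. Over the 73 members with a transcript sequence, the component weight and the transcript GC content had a Spearman rho of 0.54 (across genes, which are not independent replicates, and all from the same libraries). Within a library, the members' deviation from their mean level had a rho with GC of -0.50 in chow null 1, -0.49 in Western siAATF 2 and 0.49 in Western siAATF 3. It was 0.40 in chow siAATF 3 and 0.38 in chow null 2, and between -0.23 and 0.18 in the other 7 libraries. Over all genes tested the values were -0.58, -0.60 and 0.33 in the first 3 of these, 0.35 in chow siAATF 3 and 0.22 in chow null 2. When a per-library trend with GC was taken out, the diet median was 0.32 and 6 members were called, Atp5pb, Atp5j2, Uqcrc2, Cox4i1, Uqcr10 and Cox6c. Of all genes 17.3% were called in either direction in that fit. The part of GC content in the single-gene values was not tested beyond this.

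The 13 subunits encoded by mitochondrial DNA, which are built into the same complexes, spread widely between libraries. Their summed level was 19912, 2781 and 8403 CPM in chow null, 6459, 7600.0 and 2947 CPM in chow siAATF, 4002, 2595 and 4521 CPM in Western null and 2190.2, 11876 and 2263 CPM in Western siAATF. The highest values belonged to chow null 1 and Western siAATF 2, the libraries at one end of the members' first component, and Western siAATF 3 was among the lowest. The sum of mitochondrially encoded over that of nuclear-encoded subunits ran from 0.215 to 3.30. Of the 7 that passed the filter 0 were called for diet (edgeR), although all 7 estimates were below 0 with a median of -1.67, and chow null alone spanned 2781 to 19912 CPM. COX1, a catalytic subunit of complex IV, was at -1.19 ± 0.63 (adjusted p = 0.235, edgeR). With the low-count filter left out, 7 of the 13 were called, where 8.83% of 22289 genes were called in either direction. The count was 0 in the 16 other alternatives.

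**Figure D5:**
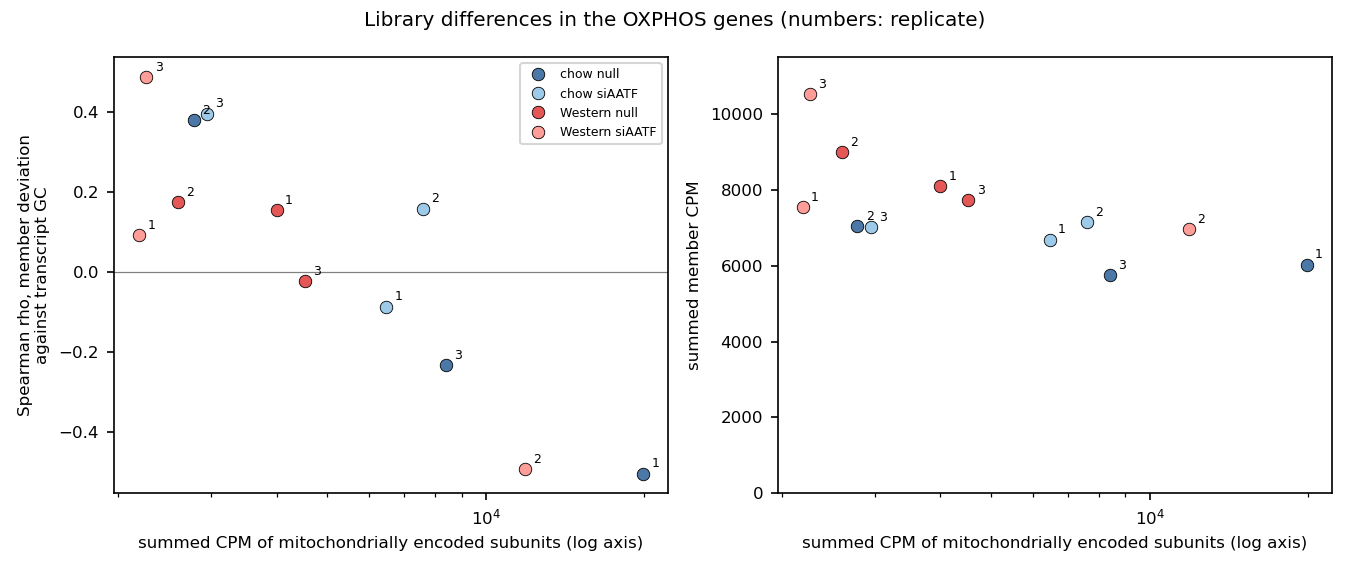
Left, Spearman rho across the members between their deviation in a library and transcript GC content; right, summed member CPM; both against the summed CPM of the mitochondrially encoded subunits on a log axis, 1 point per library with its replicate number. Chow null 1 and Western siAATF 2 have the highest mitochondrially encoded sums (19912 and 11876 CPM) and the lowest rho (-0.50 and -0.49), and Western siAATF 3 has the highest rho (0.49) and the highest member sum (10530 CPM).

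Genes that serve the same machinery were counted from lists, which, like those in the paragraphs below, were chosen with earlier results of these data known. Of the 13 tested subunits and carriers named outside the pattern, 1 rose with the diet, Slc25a5, the liver's ADP/ATP carrier, from 161 ± 8.23 to 295 ± 25.2 CPM (log2 0.87 ± 0.25, adjusted p = 0.0294, edgeR). Its call was lost on leaving out any 1 of the 6 null libraries (0.83 to 0.95, adjusted p up to 0.106, edgeR), and with the span correction it was at 0.52 (adjusted p = 0.166, edgeR). Of 42 factors that assemble the complexes 7 rose and 0 fell, where 6.44% of all genes were called higher. The count was 3 without chow null 3 or Western null 1, 4 without chow null 1 or Western null 2, and 4 with the span correction. They included Acad9, a complex I assembly factor (22.0 ± 4.94 to 53.0 ± 5.48 CPM, 1.24 ± 0.25), Tmem70, which serves the ATP synthase (1.17 ± 0.27), Uqcc2 of complex III (1.10 ± 0.27) and Cox19 of complex IV (1.16 ± 0.28), beside Cox14, Coa6 and Pet100. Each of these medians was close to that of the members: 0.28 for the carriers and 0.33 for the assembly factors. Among siAATF libraries 1 assembly factor rose with the diet, Coa6 (1.72, adjusted p = 0.0306, edgeR). It lost this call without any 1 of the chow siAATF replicates or Western siAATF replicate 2 (1.24 to 1.75, adjusted p up to 0.162, edgeR).

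Of 20 regulators of mitochondrial biogenesis 0 rose and 2 fell with the diet, where 6.77% of all genes were called lower. Nrf1, the factor that binds the NRF1 motif above, fell from 30.9 ± 5.95 to 14.6 ± 2.40 CPM (-1.06 ± 0.25, adjusted p = 0.0113, edgeR), and Gabpb1, the beta subunit of the ETS factor GABP, from 13.2 ± 3.24 to 6.95 ± 0.491 CPM (-0.95 ± 0.29, adjusted p = 0.0422, edgeR). Nrf1 lost its call without chow null 3 or Western null 1 or 2 (-0.89 to -0.99, adjusted p up to 0.0720), and Gabpb1 in 11 of 17 alternatives (-0.78 to -1.15 in those, adjusted p up to 0.176), so that 0 of the 20 were called without chow null 3 or Western null 1 or 2. Gabpa (-0.35 ± 0.34), the coactivator Ppargc1a (0.06 ± 0.27), Esrra (0.59 ± 0.38) and Tfam, which binds mitochondrial DNA (0.22 ± 0.27), did not pass. By promoter motif, the members' diet median was 0.33 for 26 with the ETS core and 0.34 for 38 without it, and 0.33 for 17 with the NRF1 motif and 0.38 for 47 without it. It was 0.42 for 11 with the YY1 motif and 0.33 for 53 without it, and 0.28 for 27 with CCAAT and 0.36 for 37 without it. These differences were not tested.

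Among mitochondrial genes outside the respiratory chain, 4 of 22 genes of the citric acid cycle and its entry rose with the diet and 0 fell, with a median of 0.40. The count was 1 without chow null 3 and 2 without Western null 1 or 2, and 6.44% of all genes were called higher. These were Idh2, the mitochondrial isocitrate dehydrogenase (68.4 ± 14.2 to 204 ± 17.0 CPM, 1.58 ± 0.27, adjusted p = 0.00144, edgeR), Pdha1 (0.90 ± 0.21), Suclg1 (0.84 ± 0.22) and Pcx, pyruvate carboxylase (1.08 ± 0.29). Pcx lost its call in 7 of 17 alternatives (adjusted p up to 0.0934, edgeR) and Suclg1 in 5 (up to 0.121), while Idh2 kept its call in all 17. Of 9 uncoupling and antioxidant genes 4 rose and 0 fell, against the same 6.44%: the uncoupling protein Ucp2 (9.01 ± 4.10 to 38.4 ± 2.55 CPM, 2.00 ± 0.35, adjusted p = 0.00161, edgeR), the lipid peroxidase Gpx4 (60.5 ± 9.06 to 211 ± 16.2 CPM, 1.80 ± 0.24), Prdx3 (1.14 ± 0.25) and Nnt (0.78 ± 0.24). Nnt lost its call in 9 of 17 alternatives, among them without any 1 of chow null 1 or 3 or Western null 1, 2 or 3 (0.69 to 0.81, adjusted p up to 0.148, edgeR). Of 77 mitochondrial ribosomal protein genes 1 rose, Mrpl12 (1.02 ± 0.22, adjusted p = 0.00597, edgeR), and 0 fell, with a median of 0.30. Of 22 genes of protein import 1 rose, Tomm5 (1.49 ± 0.37, adjusted p = 0.0143, edgeR), and 0 fell, with a median of 0.51, and 0 were called without chow null 3 or Western null 1. The count of ribosomal protein genes was 4 without chow null 2, 3 without chow null 1 and 2 without Western null 3. On the Western diet 0 genes of these 7 nuclear lists and of the mitochondrially encoded list were called between the vectors (edgeR), where Gpx4 was at -0.94 ± 0.24 (adjusted p = 0.0813).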

How the data were processed

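The authors deposited raw read counts per gene for 12 liver libraries. RNA came from a combined DNA/RNA kit and the SMART-Seq kit was used for sequencing libraries, as the labels' protocols state. Alignment tools are listed as STAR 2.7.11 and featureCounts 2.0.1 on GRCm39, with DESeq2 1.42.0 and R 4.3.2, per the submitters' processing notes. In the file the length of all 50499 genes equals their span, so introns count with exons. Total counts ran from 1646853 to 13469819 per library, and 0 columns were left unused.

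Genes were filtered with filterByExpr by group, scaled by TMM and fitted with edgeR 4.0.16 (robust quasi-likelihood, R 4.3.3) in 1 model of 4 group means with 8 residual degrees of freedom. P-values were Benjamini-Hochberg adjusted over 11934 genes, with a threshold of 0.05. Alternatives included DESeq2 1.42.0 and limma 3.58.1 (voom). The fits were tested on simulated data. Every pair of replicates was distinct, with counts 10.3 or more times as dispersed as sampling alone gives. The members and lists were chosen with earlier results of these data known. Genes named were all members past the threshold, or the 3 higher and 3 lower with the smallest p where none passed, plus core subunits, isoform pairs, the 3 highest and lowest per length, and up to 4 called genes per list. Further names (such as Ndufb8, Cox6c, Atp5e, Ndufa12 and the remaining assembly factors) were chosen after their values were seen. Promoters came from RefSeq on GRCm38.p6 and transcript lengths from GENCODE, matched by symbol. Lymphocyte markers had 0 of 6 genes tested, and 0 of 4 tested erythroid markers were called for diet. Floors cover counting error only. The single values of 1 member are not reported here, and it is left out of the plots that name genes.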

Additional observations from a re-analysis of the deposited data

Results flagged for a closer look

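Counts of muscle and other tissue isoforms appeared in libraries where the null libraries had few or none. Cox8b had 54 counts in Western siAATF replicate 1 and 5 in Western siAATF replicate 3, against 0 in each of the 6 null libraries. Cox6b2 had 6 counts in Western siAATF replicate 3 and at most 4 in any other library. The muscle marker sum was 761 CPM in Western siAATF replicate 1, where Myh4 had 3968 counts, Acta1 1946 and Ckm 651, against at most 0.987 CPM in the null libraries. The adipocyte marker sum was 102 CPM in Western siAATF replicate 3, made up of Cfd (232 counts), against at most 5.11 CPM in the null libraries. Cox8b, Cox6b2 and the muscle markers were too low elsewhere to enter the test.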

How the results depend on the processing

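Over 84 results, 1457 alternative values were computed: 1251 counted as the same, 89 lost a call, 8 gained one, 18 changed sign and 91 moved. For a gene, the same means the same direction and side of the threshold. For a median or a summed ratio it means a change under the pooled SD of the libraries (0.163 and 0.186 in log2), whatever the sign. For a count of calls it allows a limited relative change. The transcript GC correction, the sets leaving out 2 libraries together and the alternatives for summed levels were chosen after seeing the data. The set without libraries over 25% 18S leaves 1 chow null library (replicate 3), and that without Western siAATF 1 and 3 leaves 1 Western siAATF library (replicate 2, with 50.8% 18S). In both the lone library is assumed to vary like the other groups, and calls or signs there rest on it. The cause of these changes was not tested.

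For diet in null libraries, 2 members were called, where 13.2% of all genes were called in either direction. The count was 7 with DESeq2 (17.0% of all genes), 5 with only the groups compared (17.0%), 1 with the gene span correction (11.1%) and 6 with the GC correction (17.3%). It was 4 without chow null 1 and Western siAATF 2 together (10.6%), and 1 to 4 when leaving out each library (5.42% to 14.6%). The members' median stayed between 0.20 and 0.48. For diet among siAATF libraries, 1 member was called, where 1.48% of all genes were called in either direction. The count was 2 with DESeq2 size factors (1.56%), DESeq2 (4.299%), limma-voom (1.525%) and the GC correction (2.95%). With no low-count filter it was 3 (3.75%). It was 0 with only the groups compared (0.154%) and with the span correction (1.4999%). Leaving out each library gave 0 to 2 (0.278% to 5.95%). The sets that leave 1 library in a group are left out of these counts. Without Western siAATF 1 and 3 the medians were -0.20 for the vector on the Western diet, -0.047 for diet among siAATF libraries and -0.35 for the interaction. Leaving out each library gave medians of -0.17 to 0.084, 0.030 to 0.33 and -0.32 to -0.044 for these 3, and log2 ratios of the summed levels of -0.20 to 0.13 and 0.024 to 0.37 for the first pair.

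Same-numbered samples correlated at -0.15 to 0.26, with 1 of 12 pairs over 0.1, so the numbers were not taken as pairs. With the replicate block 1 member was called for diet in null libraries (9.69% of all genes) and 0 among siAATF libraries (0.595% of all genes). Cox4i1 (adjusted p = 0.0827, edgeR), Atp5md (0.0649) and, outside the members, Gabpb1 (0.0810) lost their calls.

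Signs changed for some genes near 0 and for some with larger estimates. For diet, Ndufb4 (-0.03) was 0.040 with DESeq2, 0.18 without libraries over 25% 18S, 0.44 without chow null 1 and Western siAATF 2, and -0.30 to 0.45 when leaving out each library. Ppargc1a (0.06) was -0.068 and -0.15 in the last 2 sets, and -0.15 to 0.16 leaving out each library. Gabpa (-0.35) was 0.060 without the 2 libraries, and -0.60 to 0.064 leaving out each library. Cox6b1 was -0.071 and Cox7a2 -0.18 with the span correction, and Cox7a2 -0.093 to 0.53 leaving out each library. For the interaction, Uqcrb (0.73) was -0.0063 without libraries over 25% 18S and -0.34 without the 2 libraries, where Atp5j (0.70) was -0.032. Aatf on the Western diet was -0.089 to 0.19 leaving out each library.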
